A study of Homo sapiens with 24 samples.

Results

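The 8 repeat names HERVK-int, LTR5_Hs, LTR5A, LTR5B, HERVK13-int, LTR13, LTR13A and LTR13_ were followed through RNA-seq libraries of U937, an established human myelomonocytic leukemia line. They were taken by exact name from the 992 repeat names of the deposited repeat table, and they were chosen by their measured values: LTR13_ was lower with the inhibitor UNC0638 and with G9a hairpins in these same libraries, while most repeats were higher with the hairpins. The comparisons of UNC0638 with DMSO and of G9a hairpins with scrambled are therefore given as a description: counts past the call threshold are printed there beside the share of all repeats, with no p and nothing read from them, and the same holds for every comparison of LTR13_ that uses those controls or the G9a libraries against another treatment.

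The HERVK groups include the youngest human endogenous retroviruses, remnants of proviruses that entered the germ line. A provirus carries its internal genes between a pair of long terminal repeats (LTRs), which hold its promoter and polyadenylation signal. Most copies have since lost the internal part by recombination and remain as solo LTRs. HERVK-int is the internal part of the HML-2 group, LTR5_Hs its youngest LTR, and LTR5A and LTR5B are older LTRs of that group. HERVK13-int is the internal part of the HML-4 group, and LTR13, LTR13A and LTR13_ are LTR names of the LTR13 group. In many cell types such elements are silenced by KRAB zinc finger proteins with TRIM28, by DNA methylation and by methylation of lysine 9 of histone H3 (H3K9). G9a, encoded by EHMT2, and its partner GLP, encoded by EHMT1, mainly make the dimethyl form of H3K9, and SUV39H1 mainly makes the trimethyl form.

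There were 8 groups of 3 libraries, 24 in all, each of U937 cells with no other allele named in the labels. One set received DMSO, or UNC0638, an inhibitor of G9a and GLP activity, at 2 µM or 4 µM. The labels give harvest after 3 days for UNC0638 and no harvest time for DMSO. The other set carried a scrambled hairpin, G9a hairpin 2 or 3, or SUV39H1 hairpin 2 or 4, and the labels give lentiviral delivery and 3 days of puromycin for the G9a and SUV39H1 hairpins, with no selection stated for scrambled. Each target was thus hit by 2 hairpins. The labels do not say whether libraries of a group came from separate cultures, so p-values measure only the spread between these libraries.

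Gene counts ran from 31545854 to 53803704 per library, and the repeat counts equalled between 5.38% and 7.84% of them. That percentage was 5.76 ± 0.12 (SD, n = 3) with scrambled, 6.96 ± 0.07 and 6.79 ± 0.34 with G9a hairpins 2 and 3, and 7.40 ± 0.21 and 7.79 ± 0.05 with SUV39H1 hairpins 2 and 4. EHMT2 was at 144 ± 8.5 CPM with scrambled and at 73.7 ± 2.8 and 73.2 ± 3.7 CPM with the G9a hairpins, so its mRNA followed the labels. SUV39H1 was at 58.2 ± 1.7 CPM with scrambled and at 18.6 ± 0.40 and 21.1 ± 1.8 CPM with its own hairpins. Of 7 myeloid markers CD33, SPI1, LYZ, CSF3R, CD68 and CD4 were at 15.8 CPM or more in every library, while MPO stayed between 0.54 and 1.88 CPM. Among markers of other cell types HBG1 was at 0, CD3E, EPCAM and ALB were at or near 0, and COL1A1 reached 0.79 CPM.

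The members' own counts ranged from 82 for LTR13_ to 4765 for LTR13 in a library, and all 8 passed the filter on low counts that 929 of the 992 names passed. Levels are given in CPM, gene-table counts per 1e6 with the TMM factors of the gene table, which leaves a general shift of repeats in view. The deposited table pools all genomic copies of a name and the kit does not mark strand. A value therefore does not show which copy or strand the RNA came from, nor whether it began in the LTR or ran in from a neighbouring gene. How reads that map to several copies were treated is not given in the sources used here, and counts of close relatives such as the LTR5 names are uncertain for that reason.

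Per kilobase of summed genomic length, HERVK13-int and LTR13 were the most abundant members, with 0.195 and 0.185 CPM per kb over all libraries. LTR13_ followed with 0.111, LTR13A with 0.0900, LTR5B with 0.0750 and LTR5A with 0.0637 CPM per kb. The LTR that marks the youngest proviruses, LTR5_Hs, had 0.0281 and HERVK-int, the internal part, 0.0191 CPM per kb. On this scale HERVK13-int ranked 48 of 992 repeat names and HERVK-int 599. Averaged over all libraries the LTR13 side lay above the LTR5 side in level per length, but with G9a hairpins LTR13_ was at 0.0663 and 0.0522 CPM per kb, below LTR5A and LTR5B. LTR13 alone held 42.0% of the members' counts.

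**Figure D1:**
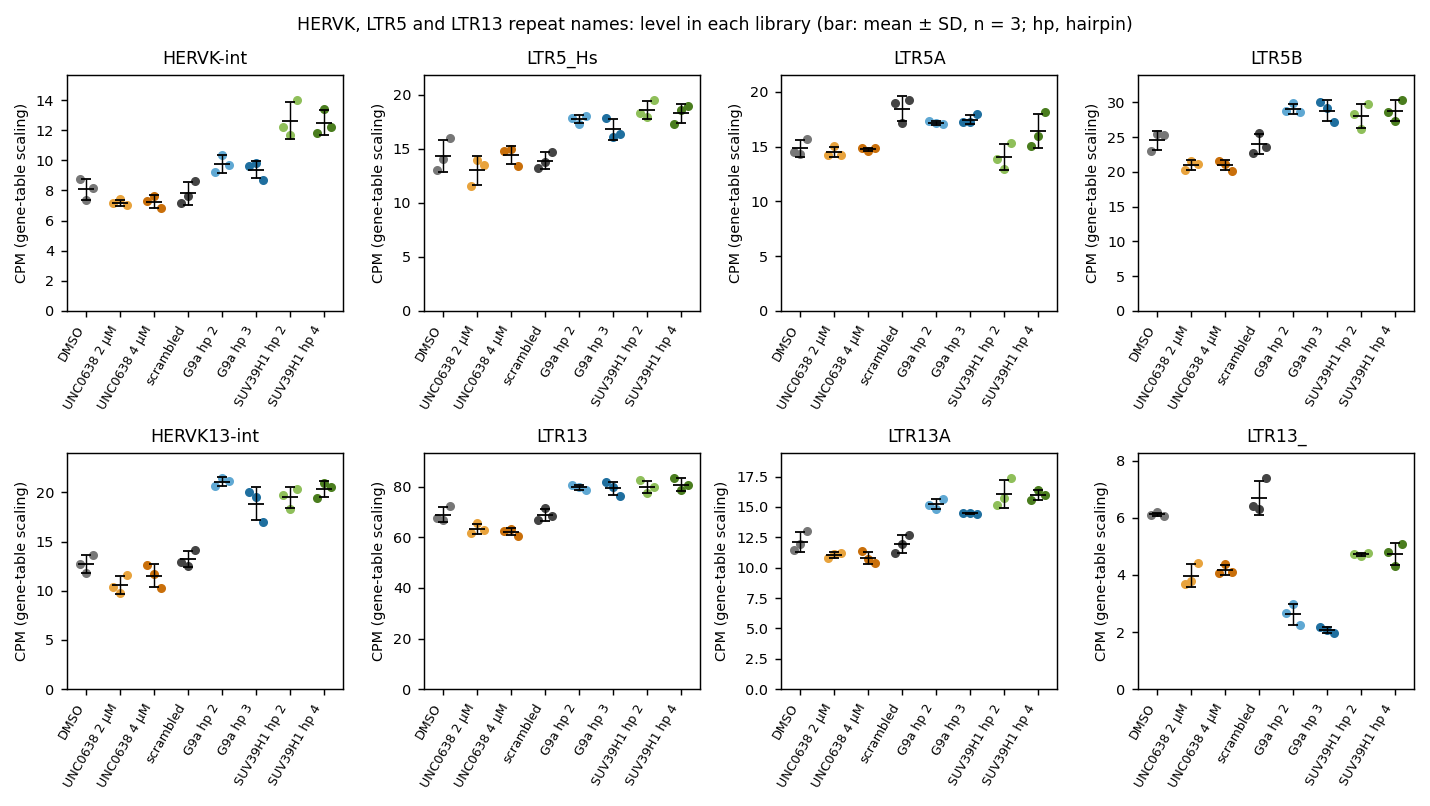
Level in CPM (vertical axis, linear from 0) of each of the 8 repeat names in every library of the 8 groups (horizontal axis); points are libraries and bars mean ± SD of 3. In 6 panels the hairpin groups for G9a and SUV39H1 sit above scrambled, whereas LTR13_ is lowest with G9a hairpins and LTR5A is highest with scrambled.

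LTR13_ had the pattern the members were chosen for. Its level was 6.09, 6.18 and 6.07 CPM in the DMSO libraries, 3.68, 3.80 and 4.43 CPM at 2 µM UNC0638, and 4.07, 4.38 and 4.09 CPM at 4 µM. With the scrambled hairpin it was 6.40, 6.30 and 7.39 CPM, with G9a hairpin 2 2.67, 2.98 and 2.24 CPM and with G9a hairpin 3 2.17, 2.06 and 1.98 CPM. SUV39H1 hairpin 2 gave 4.74, 4.67 and 4.76 CPM, and SUV39H1 hairpin 4 gave 4.79, 4.30 and 5.08 CPM. The control libraries were the highest, the SUV39H1 and UNC0638 libraries lay between, and the G9a libraries were the lowest, with no library of a treated group reaching its control. Ordered by mean, neighbouring groups overlapped only between the UNC0638 doses and between the SUV39H1 hairpins.

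The log2 change of LTR13_ was −0.61 ± 0.09 (SE) at 2 µM and −0.55 ± 0.09 at 4 µM against DMSO. It was −1.34 ± 0.09 with G9a hairpin 2 and −1.69 ± 0.10 with hairpin 3 against scrambled, a level 0.395 and 0.310 times the control. For both G9a hairpins together it was −1.52 ± 0.08, the lowest value of all 929 repeat names tested. In the SUV39H1 libraries, which share the scrambled control, the change was −0.50 ± 0.07, and the SUV39H1 hairpins stood 1.01 ± 0.07 above the G9a hairpins on the log2 scale. These values chose the members or share libraries with those that did, so they are described only.

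Comparisons within a treatment did not enter the choice. Between the G9a hairpins, LTR13_ differed by −0.35 ± 0.12 (hairpin 3 against 2), which did not pass after Benjamini-Hochberg adjustment over all repeats in edgeR's quasi-likelihood test (adjusted p = 0.973), with a 95% interval of −0.59 to −0.11 before adjustment. The 3 libraries of hairpin 3 were all below those of hairpin 2. Between doses the difference was 0.06 ± 0.09, with an interval of −0.13 to 0.26, and between the SUV39H1 hairpins it was 0.00 ± 0.09, with an interval of −0.18 to 0.18; neither passed. Counts of 82 to 320 per library limit how small a difference in LTR13_ could be seen.

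Within a library, the count of LTR13_ was 0.0974 ± 0.0099 times that of LTR13 with scrambled, 0.0330 ± 0.0044 and 0.0261 ± 0.0004 with the G9a hairpins, and 0.0592 ± 0.0014 and 0.0585 ± 0.0042 with the SUV39H1 hairpins (SD, n = 3 each). It was 0.0888 ± 0.0043 with DMSO, 0.0628 ± 0.0068 at 2 µM and 0.0673 ± 0.0021 at 4 µM. These ratios need no scaling between libraries, and they placed the controls highest and the G9a hairpins lowest, as CPM did. Between these, the UNC0638 means lay above the SUV39H1 means by ratio and below them in CPM. The UNC0638 and G9a values are those that chose LTR13_.

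**Figure D2:**
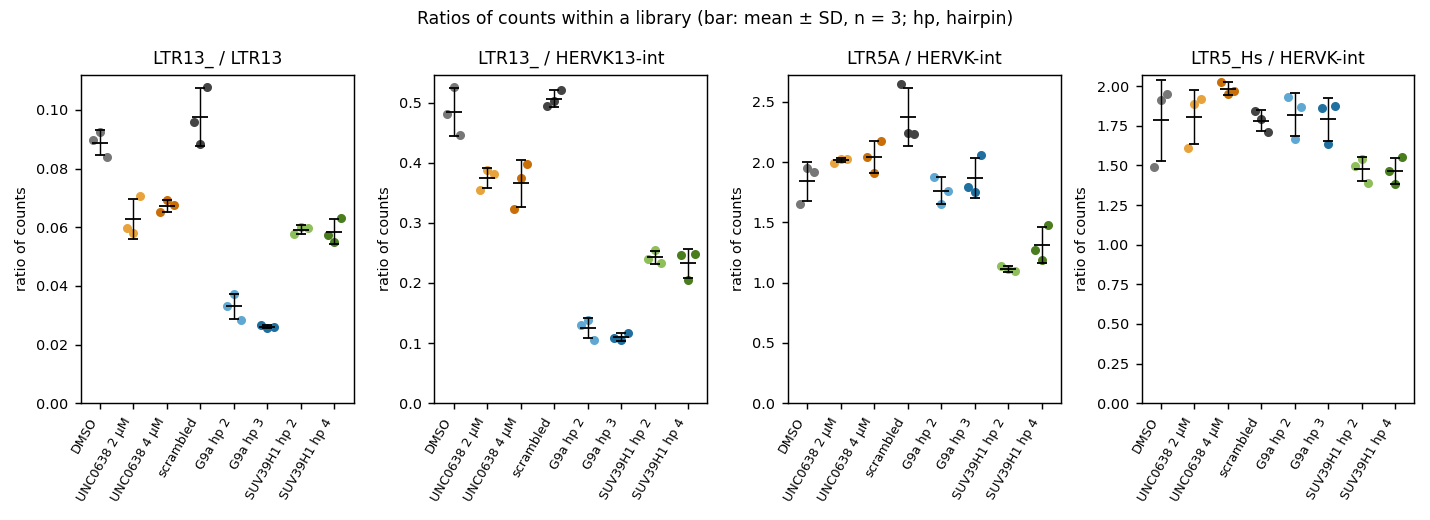
Ratio of counts of 2 repeat names within each library (vertical axis, linear from 0) in the 8 groups (horizontal axis); points are libraries and bars mean ± SD of 3. LTR13_ to LTR13 is lowest with G9a hairpins (0.0330 and 0.0261), and LTR5A to HERVK-int is lowest with SUV39H1 hairpins (1.11 and 1.32).

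The other 7 members did not share this pattern. With UNC0638 the changes were small: LTR5B was at 24.6 ± 1.3 CPM with DMSO and at 21.0 ± 0.69 and 21.0 ± 0.75 CPM at 2 µM and 4 µM (SD, n = 3), and LTR13 at 68.9 ± 2.9, 63.3 ± 2.1 and 62.2 ± 1.4 CPM. At 2 µM 2 members passed the call, LTR5B (log2 change −0.23 ± 0.06) and LTR13_, against 4.84% of all repeats. At 4 µM 3 passed, LTR5B (−0.23 ± 0.06), LTR13 (−0.15 ± 0.04) and LTR13_, against 6.78% of all repeats. All changes against DMSO were below 0, between −0.61 and −0.03 at 2 µM and between −0.55 and 0.00 at 4 µM, while the medians over all repeats were −0.09 and −0.06. With libraries scaled by the repeat table, only LTR13_ passed at 2 µM, where 2.69% of all repeats were called higher and 0.862% lower. At 4 µM LTR5B (−0.17) and LTR13_ passed on that scale and LTR13 (−0.09) did not, where 7.33% were called higher and 2.91% lower. The rule used these contrasts, so nothing is read from the counts.

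No member passed the test between the doses. Of the 8 members 0 passed edgeR's quasi-likelihood test for 4 µM against 2 µM, 0 at an unadjusted p under 0.05 and 0 with DESeq2, beside 0.323% of all repeats. The largest difference was 0.14 ± 0.07 for LTR5_Hs, whose libraries held 11.5, 14.0 and 13.5 CPM at 2 µM and 14.7, 15.0 and 13.4 CPM at 4 µM. These groups overlapped.

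With G9a hairpins, the internal parts and most LTRs were higher than with scrambled. HERVK13-int was at 12.9, 12.6 and 14.2 CPM with scrambled, 20.6, 21.4 and 21.2 CPM with hairpin 2 and 20.1, 19.6 and 17.0 CPM with hairpin 3, a log2 change of 0.59 ± 0.07 for both hairpins together. Its groups did not overlap. The other 5 members above scrambled were HERVK-int (0.29 ± 0.07), LTR5_Hs (0.31 ± 0.06), LTR5B (0.27 ± 0.05), LTR13 (0.21 ± 0.04) and LTR13A (0.31 ± 0.05). LTR5A was at −0.09 ± 0.06, with overlapping libraries.

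Of the 8 members 6 were called higher and 1 lower for the G9a hairpins together and for each hairpin alone, against 72.9% of all repeats called for both together, 69.3% for hairpin 2 and 63.8% for hairpin 3. The median log2 change was 0.28 over the members and 0.28 over all repeats. With libraries scaled by the repeat table instead, that shift of all repeats goes to 0.02, HERVK13-int stays at 0.33, and LTR13 turns to −0.05. The other 4 of the 6 lie between 0.01 and 0.05 there, and LTR5A at −0.35. The counts follow the rule's contrast and are a description.

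Between the G9a hairpins 0 of 8 members passed edgeR's quasi-likelihood test, 2 at an unadjusted p under 0.05 and 0 with DESeq2, beside 0% of all repeats (28 of 929 at an unadjusted p under 0.05). The members with the lower unadjusted values were LTR13_ and HERVK13-int, the latter at −0.16 ± 0.07.

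**Figure D3:**
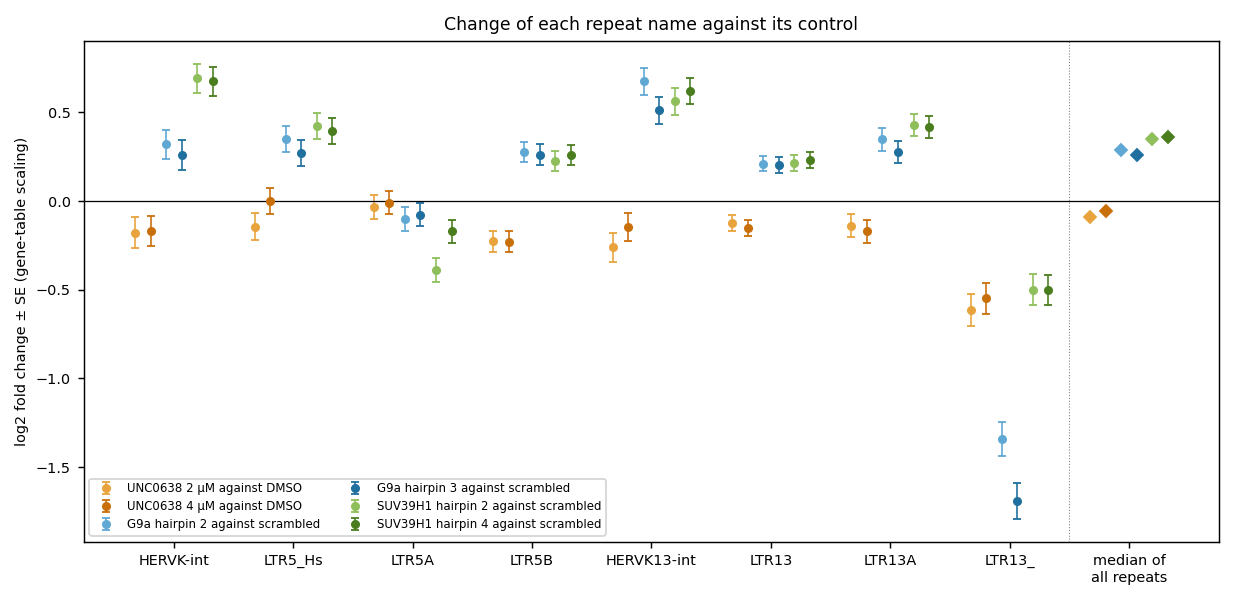
Log2 fold change ± SE against the matching control (vertical axis) of each repeat name (horizontal axis) for both UNC0638 doses and the 4 knockdown hairpins; diamonds at the right give the median of all repeats. Most members follow the diamonds, HERVK-int with SUV39H1 hairpins (0.69 and 0.67) and HERVK13-int with all 4 hairpins lie above them, and LTR5A and LTR13_ lie below with hairpins.

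SUV39H1 knockdown was not used to choose the members, apart from the shared scrambled libraries. Here the HML-2 internal part HERVK-int had the largest change of the 7 members tested with gene-table scaling, whereas with repeat-table scaling LTR5A had it (−0.61, against 0.36 for HERVK-int). It was at 7.15, 7.66 and 8.61 CPM with scrambled, 12.2, 11.7 and 14.0 CPM with hairpin 2 and 11.8, 13.4 and 12.2 CPM with hairpin 4. Every SUV39H1 library lay above every scrambled library, and the log2 change for both hairpins was 0.68 ± 0.07 (adjusted p = 1.62e-09 by edgeR's quasi-likelihood test), 1.61-fold. HERVK-int also rose above the G9a hairpin level, which was 9.23, 10.4 and 9.67 CPM with hairpin 2 and 9.60, 9.84 and 8.72 CPM with hairpin 3. That difference between the knockdowns was 0.39 ± 0.06 (edgeR's quasi-likelihood test, adjusted p = 1.08e-06) with no overlap of libraries.

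HERVK13-int, the HML-4 internal part, was at 19.8, 18.3 and 20.4 CPM with SUV39H1 hairpin 2 and 19.5, 21.0 and 20.5 CPM with hairpin 4. All were above the scrambled libraries, which reached 14.2 CPM. The rise was 0.59 ± 0.07 on the log2 scale (adjusted p = 6.43e-09 by edgeR's quasi-likelihood test). Unlike HERVK-int it stood at the G9a level, with a difference between the knockdowns of 0.00 ± 0.05 and a 95% interval of −0.11 to 0.10.

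The LTRs LTR5_Hs, LTR5B, LTR13 and LTR13A rose as well. LTR5_Hs was at 13.2, 13.7 and 14.7 CPM with scrambled, 18.3, 18.0 and 19.5 CPM with SUV39H1 hairpin 2 and 17.3, 18.6 and 19.0 CPM with hairpin 4, a rise of 0.41 ± 0.06 (edgeR's quasi-likelihood test, adjusted p = 1.73e-06). LTR13A rose by 0.42 ± 0.05 (adjusted p = 6.73e-08), from 12.0 ± 0.70 CPM to 16.1 ± 1.1 and 16.0 ± 0.42 CPM with the hairpins. LTR5B rose by 0.24 ± 0.05 (adjusted p = 8.2e-05) and LTR13 by 0.22 ± 0.04 (adjusted p = 6.09e-06), the smallest rise of the members but in the most abundant name. For all 4 the SUV39H1 libraries lay above the scrambled ones without overlap, in a comparison where 82.1% of all repeats were called.

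LTR5A went the other way. It was at 18.9, 17.2 and 19.3 CPM with scrambled, 13.9, 12.9 and 15.3 CPM with SUV39H1 hairpin 2 and 15.1, 16.0 and 18.1 CPM with hairpin 4. Hairpin 2 lay below every scrambled library, and 1 library of hairpin 4 overlapped them. The fall was −0.28 ± 0.06 for both hairpins (edgeR's quasi-likelihood test, adjusted p = 6.12e-05), −0.39 ± 0.07 for hairpin 2 (8.53e-06) and −0.17 ± 0.06 for hairpin 4 (0.0186). Without the TMM factor the fall of LTR5A shrank to −0.17 for both hairpins and to −0.04 for hairpin 4, where the call was lost, as it was without scrambled replicate 1 or 3 or without hairpin 4 replicate 1 or 2 (−0.10 to −0.15).

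The scrambled control of LTR5A was itself high. The DMSO libraries held 14.5, 14.3 and 15.7 CPM, all below the scrambled ones, and LTR5A was 0.31 ± 0.07 higher with scrambled than with DMSO (edgeR's quasi-likelihood test, adjusted p = 0.00199). It was the only 1 of the 7 members tested that differed between the controls, where 8.83% of all repeats did. The SUV39H1 libraries, at 12.9 to 18.1 CPM, thus spanned the DMSO range. DMSO and scrambled differ in both solvent and hairpin. The labels state neither selection for scrambled nor a harvest time for DMSO, so these may differ too. None of these can be told apart.

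LTR5A also differed between the SUV39H1 hairpins, by 0.22 ± 0.07 (hairpin 4 against 2, edgeR's quasi-likelihood test, adjusted p = 0.0233). It was the 1 member of 8 to do so, beside 18.5% of all repeats. The call was lost with repeat-table scaling (0.19, adjusted p = 0.0504), with the compared libraries only, and in 3 of 6 fits that left out 1 library, without hairpin 2 replicate 1 or 2 or hairpin 4 replicate 3. For the other 7 the difference between these hairpins lay between −0.03 and 0.06.

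Counted together, 6 of the 7 members tested rose with SUV39H1 hairpins and 1 fell, for both hairpins together and for each alone, against 82.1% of all repeats called for both, 76.6% for hairpin 2 and 79.5% for hairpin 4. Of all repeats 75.5% rose and 6.67% fell, with a median log2 change of 0.36. The middle value of the 7 members tested was that of LTR5_Hs, 0.41. With LTR13_ included, which is described only, the median over the 8 members was 0.33. The share of members that rose was therefore near that of repeats in general.

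The rise of all repeats depended on how libraries were scaled. Scaled by the repeat table itself, 28.0% of repeats rose and 24.5% fell with SUV39H1 hairpins. HERVK-int and HERVK13-int still rose, by 0.36 ± 0.06 and 0.27 ± 0.05 (edgeR's quasi-likelihood test, adjusted p = 1.5e-05 and 0.000164), and LTR5A fell by 0.61 ± 0.06 on the log2 scale (1.98e-09). LTR13 changed sign and fell, to −0.10 ± 0.03 (0.0108), LTR5B changed sign to −0.08 ± 0.04 without a call, and LTR5_Hs (0.08 ± 0.06) and LTR13A (0.10 ± 0.05) were no longer called. On this scale both internal parts were called higher, and LTR5_Hs, LTR5B, LTR13 and LTR13A were not.

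**Figure D4:**
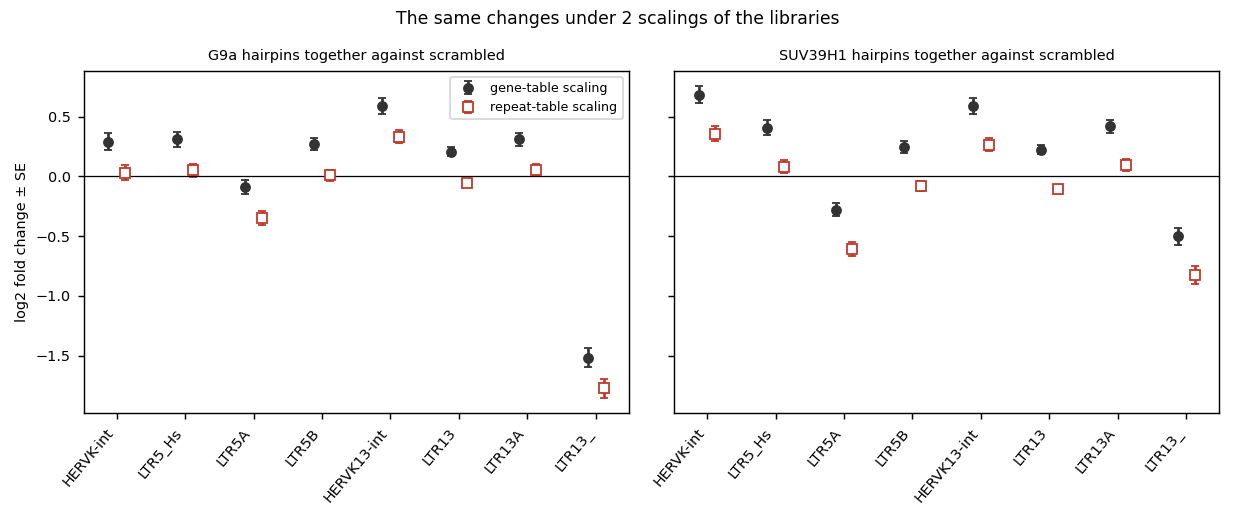
Log2 fold change ± SE against scrambled (vertical axis) of the 8 repeat names (horizontal axis) for G9a and SUV39H1 hairpins, with libraries scaled by the gene table (filled circles) or by the repeat table (open squares). Under the second scaling HERVK13-int stays above 0 in both panels and HERVK-int in the SUV39H1 panel (0.36), and LTR13 moves below 0.

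The balance of internal part and LTR showed this within a library. LTR5_Hs gave 1.78 ± 0.07 counts per count of HERVK-int with scrambled and 1.48 ± 0.08 and 1.46 ± 0.08 with SUV39H1 hairpins 2 and 4 (SD, n = 3 each). The SUV39H1 libraries did not overlap with scrambled but did with DMSO, which was at 1.78 ± 0.26 with a lowest library of 1.49. With G9a hairpins this ratio was 1.82 ± 0.14 and 1.79 ± 0.13. LTR5A gave 2.38 ± 0.24 counts per HERVK-int count with scrambled, 1.11 ± 0.02 and 1.32 ± 0.15 with SUV39H1 hairpins, 1.76 ± 0.11 and 1.87 ± 0.17 with G9a hairpins and 1.84 ± 0.16 with DMSO. On the HML-4 side, LTR13 gave 5.22 ± 0.43 counts per HERVK13-int count with scrambled, 3.78 ± 0.12 and 4.22 ± 0.24 with G9a hairpins and 4.11 ± 0.17 and 3.98 ± 0.28 with SUV39H1 hairpins. The HML-4 ratio was thus lower in all libraries of both knockdowns than with scrambled, and so was the ratio of LTR5A to HERVK-int. The ratio of LTR5_Hs to HERVK-int was lower in all SUV39H1 libraries than with scrambled, and overlapped with scrambled for both G9a hairpins. These ratios were not tested.

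Between the knockdowns, 3 of the 7 members tested differed, against 41.4% of all repeats. HERVK-int was higher with SUV39H1 hairpins, as given above, and LTR13A by 0.11 ± 0.04 (edgeR's quasi-likelihood test, adjusted p = 0.0379). LTR5A was lower by −0.19 ± 0.05 (adjusted p = 0.00147), with libraries of both sets overlapping. The LTR13A call was lost with DESeq2 (adjusted p = 0.0516), with repeat-table scaling (0.04, adjusted p = 0.364) and with 10 of the 12 hairpin libraries left out in turn. The LTR5A call was lost without the TMM factor, at −0.09. LTR5_Hs, LTR5B, HERVK13-int and LTR13 did not pass the test with gene-table scaling, and LTR5B was called lower with repeat-table scaling (−0.09, adjusted p = 0.031).

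**Figure D5:**
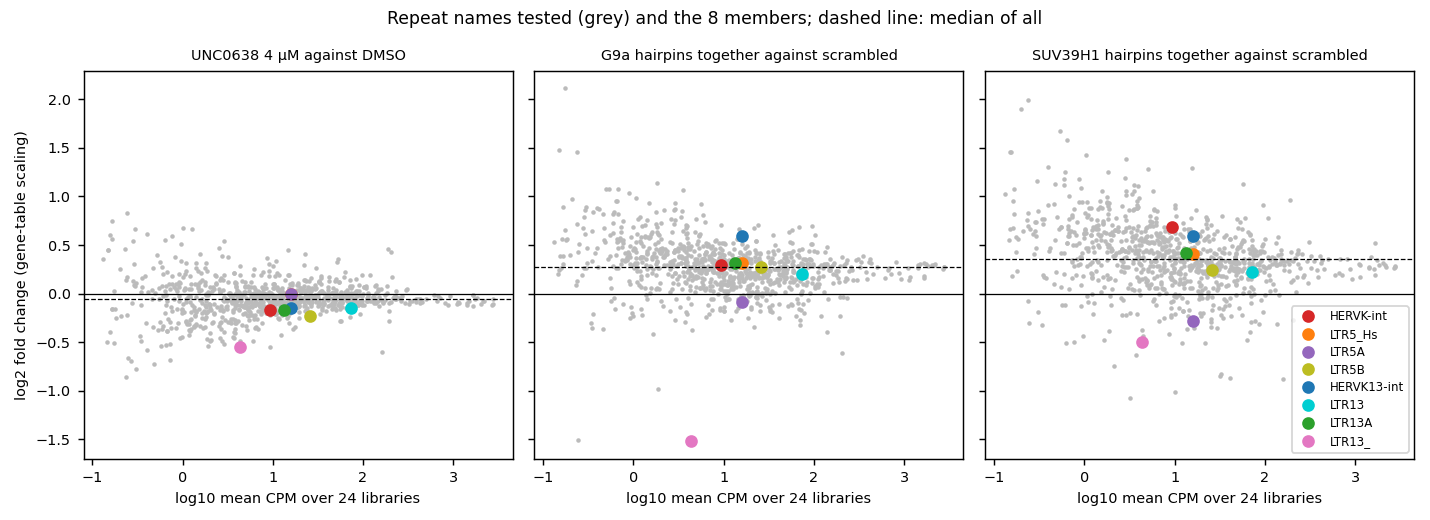
Log2 fold change (vertical axis) against log10 mean CPM (horizontal axis) of the 929 repeat names tested (grey) with the 8 members coloured, for 4 µM UNC0638, G9a hairpins and SUV39H1 hairpins; the dashed line is the median of all. LTR5_Hs is hidden behind LTR5A in the UNC0638 panel. LTR13_ is the lowest of all names with G9a hairpins (−1.52), and LTR5A and LTR13_ lie below the bulk with SUV39H1 hairpins.

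Among related repeats, LTR5, a name without a suffix that is not among the 8, also fell with SUV39H1 hairpins. It was at 4.32 ± 0.57 CPM with scrambled and at 2.50 ± 0.43 and 3.08 ± 0.18 CPM with SUV39H1 hairpins (SD, n = 3), a fall of −0.63 ± 0.09 (edgeR's quasi-likelihood test, adjusted p = 8.14e-07). With G9a hairpins it was at −0.29 ± 0.09, where LTR5A was at −0.09 ± 0.06. Unlike LTR5A it stood at 4.08 ± 0.36 CPM with DMSO, near scrambled. It was named after its values were seen.

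Of 28 names of other HERVK-type groups (HERVK3 to HERVKC4 with LTR3, LTR14, LTR22, MER9 and MER11), all passed the filter, 18 rose and 1 fell with SUV39H1 hairpins, with a median log2 change of 0.45. Of all repeats 75.5% rose, with a median of 0.36, so 18 of 28 was not a larger share. HERVK11-int, an internal part of the HML-8 group, rose by 1.18 ± 0.10 (edgeR's quasi-likelihood test, adjusted p = 6.42e-11), from 1.83 ± 0.19 CPM to 4.02 ± 0.34 and 4.28 ± 0.15 CPM. HERVK9-int, of the HML-3 group, rose by 0.47 ± 0.04 (adjusted p = 1.95e-10). The name that fell was LTR3 (−0.36 ± 0.06). SVA elements are composite retrotransposons whose 3′ part derives from an HERVK LTR and env. Of their 6 names 3 rose and 0 fell (median 0.13), also no larger a share than of all repeats, among them SVA_C by 0.65 ± 0.05 and SVA_E by 0.75 ± 0.11 (adjusted p = 3.17e-11 and 2.66e-07).

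Of 18 genes of retroviral silencing and H3K9 methylation, 3 rose and 12 fell with SUV39H1 hairpins together, the hairpins' target SUV39H1 among the 12. Of all 20147 genes tested 67.8% were called, 35.1% higher and 32.7% lower. For hairpin 2 alone 3 of the 18 rose and 11 fell, where 67.1% of all genes were called. For hairpin 4 alone 4 rose and 8 fell, where 60.9% were called. The hairpins differed: 9 of the 18 were higher and 1 lower with hairpin 4 than with hairpin 2, where 42.9% of all genes were called. SUV39H1 itself fell by 1.55 ± 0.05 on the log2 scale (adjusted p = 7.31e-19), and its paralog SUV39H2 was at −0.92 ± 0.06 (edgeR's quasi-likelihood test, adjusted p = 7.22e-14). TRIM28, the KRAB corepressor, was at 664 ± 40 CPM with scrambled and at 446 ± 5.3 and 484 ± 17 CPM with SUV39H1 hairpins, but at 674 ± 33 and 681 ± 21 CPM with G9a hairpins. The G9a complex genes were lower too: EHMT2 was at 108 ± 2.2 and 128 ± 2.5 CPM with SUV39H1 hairpins against 144 ± 8.5 with scrambled, and EHMT1 at 54.0 ± 0.57 and 60.7 ± 2.5 against 84.5 ± 2.9 CPM. CBX5 and CBX1 were higher with SUV39H1 hairpins. CBX5 was at 124 ± 6.1 and 118 ± 1.6 against 101 ± 1.5 CPM with scrambled, and CBX1 at 47.4 ± 1.2 and 45.8 ± 1.2 against 39.4 ± 1.7 CPM. The part of the silencing genes in the members' changes was not tested.

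The gene table held 2 genes named for HERVK proviruses that passed the filter. ERVK13-1 (hg19, chr16:2710350-2723445, minus strand) had counts of 217 to 672 per library. It was at 7.81 ± 0.70 CPM with scrambled, 12.5 ± 0.14 and 11.5 ± 0.81 CPM with G9a hairpins and 10.1 ± 0.30 and 12.5 ± 0.70 CPM with SUV39H1 hairpins (SD, n = 3). Over the 24 libraries its log2 level followed that of HERVK13-int with a Pearson r of 0.953. The files do not show whether both tables counted the same reads, and the libraries share their treatments. With SUV39H1 hairpins together ERVK13-1 rose by 0.53 ± 0.07 (edgeR's quasi-likelihood test, adjusted p = 6.42e-08), by 0.38 with hairpin 2 and 0.69 with hairpin 4. Both ERVK genes were called higher with hairpin 4 than with hairpin 2, where 42.9% of all genes were called.

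ERVK3-1 (hg19, chr19:58816715-58827023, plus strand) did not rise. It was at 35.9 ± 0.58 CPM with scrambled, 29.3 ± 0.43 and 34.5 ± 1.0 CPM with SUV39H1 hairpins and 30.8 ± 0.63 CPM with DMSO, a fall of −0.18 ± 0.04 against scrambled (edgeR's quasi-likelihood test, adjusted p = 8.59e-05). For hairpin 2 alone the change was −0.30, and for hairpin 4 alone it was −0.06 ± 0.04 and did not pass. ERVK3-1 was itself 0.22 higher on the log2 scale with scrambled than with DMSO. Its r with HERVK3-int was 0.875 and with HERVK-int 0.187 over the 24 libraries.

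The start regions of both genes, 1 that rose and 1 that did not, are shown for comparison. They come from RefSeq on GRCh38.p14, a later build than the hg19 of the counts, and run from 250 bases before to 50 bases after the start of the gene, 5′ to 3′ on the gene's strand. Capitals mark the GC box, GGGCGG or its reverse complement CCGCCC, a promoter motif bound by SP1-family factors. ERVK13-1 lies at chr16:2673390-2673689 on the minus strand and ERVK3-1 at chr19:58305127-58305426 on the plus strand.
ERVK13-1: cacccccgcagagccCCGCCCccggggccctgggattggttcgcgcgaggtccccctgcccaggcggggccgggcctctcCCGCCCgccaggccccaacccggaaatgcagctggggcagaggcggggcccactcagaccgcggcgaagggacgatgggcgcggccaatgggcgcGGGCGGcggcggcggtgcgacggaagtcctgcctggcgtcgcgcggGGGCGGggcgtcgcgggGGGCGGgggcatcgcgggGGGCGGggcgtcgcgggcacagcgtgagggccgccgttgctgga
ERVK3-1: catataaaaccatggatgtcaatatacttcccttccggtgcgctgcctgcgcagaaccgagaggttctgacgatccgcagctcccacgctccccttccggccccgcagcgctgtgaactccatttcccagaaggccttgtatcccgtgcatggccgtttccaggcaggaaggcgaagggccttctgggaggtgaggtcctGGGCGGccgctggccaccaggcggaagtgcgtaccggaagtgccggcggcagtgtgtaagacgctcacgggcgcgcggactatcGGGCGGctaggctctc
The ERVK13-1 window held 44 CG dinucleotides, 80.7% G and C and 6 GC boxes, and the ERVK3-1 window 27 CG dinucleotides, 63.7% G and C and 2 GC boxes. Of all 35116 windows of this length that RefSeq gave, 45% held a GC box on either strand, and the median CG count was 14. A match is a string in this window, not a shown binding site.

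Across the 24 libraries, HERVK-int, LTR5_Hs, LTR5B, HERVK13-int, LTR13 and LTR13A moved together, with Pearson r of log2 CPM from 0.79 for HERVK-int with LTR5B to 0.97 for LTR5B with LTR13. LTR5A had r of 0.03 with HERVK-int and 0.37 with LTR5B. LTR13_ had negative r with every other member, from −0.11 with HERVK-int to −0.42 with HERVK13-int. These points share treatments and libraries, so the values describe the pattern only.

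The repeats whose levels were most like LTR13_ over the 24 libraries were THE1A (r = 0.72), THE1A-int (0.70) and Tigger10 (0.65), out of 921 names with a median r of −0.30. THE1A and THE1A-int, parts of a MaLR retrotransposon, were at 75.9 ± 2.2 and 160 ± 4.3 CPM with scrambled and at 62.6 ± 2.3 and 121 ± 2.3 CPM with G9a hairpin 2. At 4 µM UNC0638 THE1A was at 78.6 ± 1.9 CPM against 71.5 ± 2.9 with DMSO, where LTR13_ was lower. Among 13566 genes the most alike were FITM2 (r = 0.93), RP13-638C3.4 (0.92) and CCDC115 (0.91). FITM2, an endoplasmic reticulum protein of lipid droplet formation (hg19, chr20:42931478-42939809), was at 21.3 ± 0.08 CPM with scrambled, 11.2 ± 0.45 and 11.3 ± 0.91 CPM with G9a hairpins and 17.5 ± 1.5 and 18.8 ± 0.87 CPM with SUV39H1 hairpins. RP13-638C3.4 lies at chr17:80560865-80562054 and CCDC115 at chr2:131095814-131099922 on hg19. With DMSO, 2 µM and 4 µM UNC0638, FITM2 was at 19.8 ± 1.1, 18.0 ± 0.49 and 16.6 ± 0.20 CPM. CCDC115 was at 53.5 ± 1.1, 48.3 ± 0.79 and 47.8 ± 1.5 CPM there. RP13-638C3.4, at 3.54 ± 0.11, 3.33 ± 0.07 and 3.55 ± 0.13 CPM, was not lower at 4 µM, where LTR13_ was. The r of each gene includes the libraries that chose LTR13_.

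LTR5_Hs and HERVK-int had many close companions, with a median r over all other repeats of 0.77 and 0.78. The nearest to LTR5_Hs were MIR3, THE1B and MLT1C (r = 0.95 each) and, among genes, GS1-124K5.11, LINC01001 and HECTD4 (r = 0.94 each). The nearest to HERVK-int were THE1B-int, MamGypLTR1c and LTR8 (r = 0.96 each) and the genes RP11-219A15.1, FAM157B and NCOA2 (r = 0.96 each). The negative median r of LTR13_ restates how it was chosen.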

How the data were processed

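RNA of 24 U937 libraries was made into unstranded TruSeq libraries per the labels' protocols, and per the submitters' processing notes the authors used STAR, featureCounts and hg19. How multiply mapping reads were counted is not given in the sources used here, nor are versions or settings. Both deposited tables, of genes and of repeats, hold whole-number counts. The deposited other value, each name's summed bases, served only to give levels per kilobase.

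Repeats passing filterByExpr (minimum count 10, minimum total count 15; 929 of 992) were fitted with edgeR 4.0.16 in R 4.3.3 (limma 3.58.1), with glmQLFit and glmQLFTest, 1 mean per group over all 24 libraries, and with the gene table's library sizes and TMM factors. Names with a Benjamini-Hochberg adjusted p under 0.05 over all repeats were called, 2-sided. Genes (20147 of 55773) were fitted likewise. Correlations used log2 CPM after adding 0.5 counts. Intervals are 95% and unadjusted. The common dispersion of repeats was 0.00285, a biological coefficient of variation of 5.34%. Total counts per library were 31545854 to 53803704 for genes and 1837411 to 4163513 for repeats. The labels name no technical batch, and no 2 libraries held identical values. The fit was tested on simulated counts.

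Members and lists were chosen with earlier results of these data known. Named were all 8 members, EHMT2 and SUV39H1, the 2 called names with the smallest p of each companion list with SUV39H1 hairpins, ERVK genes passing the filter, and for LTR13_, LTR5_Hs and HERVK-int the 3 repeats and 3 genes (mean of at least 2 CPM) with the highest r. TRIM28, EHMT1, CBX5, CBX1, LTR3 and LTR5 were named beyond this rule after their values were seen. Alternatives were RLE factors, no TMM factor, repeat-table scaling, no count filter, DESeq2 1.42.0, compared libraries only, a replicate block and leaving out each library. One marker of another cell type is not reported here.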

Additional observations from a re-analysis of the deposited data

Results flagged for a closer look

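LTR5A differed between the SUV39H1 hairpins: it was 0.22 higher on the log2 scale with hairpin 4 than with hairpin 2, at 16.4 ± 1.6 CPM against 14.0 ± 1.2 CPM (SD, n = 3 each). The difference between hairpins that share a target passed edgeR's quasi-likelihood test (adjusted p = 0.0233), although the libraries overlapped, and 18.5% of all repeats differed likewise. The call was lost with repeat-table scaling (adjusted p = 0.0504), with the compared libraries only and in 3 of 6 fits with 1 library left out. SUV39H1 mRNA was at 18.6 ± 0.40 CPM with hairpin 2 and at 21.1 ± 1.8 CPM with hairpin 4, and its part in the difference was not tested.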

How the results depend on the processing

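With libraries scaled by the repeat table, 4 members were called against scrambled for the SUV39H1 hairpins together, 4 for hairpin 2 and 4 for hairpin 4 (7 each with gene-table scaling), because that scaling takes out the shift of all repeats. LTR13 then reversed to −0.054 for the G9a hairpins together (−0.067 for hairpin 2 and −0.042 for hairpin 3) and to −0.103 for the SUV39H1 hairpins together (−0.097 and −0.110 for hairpins 2 and 4). LTR5B reversed to −0.083 for the SUV39H1 hairpins together (−0.085 for hairpin 2 and −0.080 for hairpin 4). The call of LTR5A between the SUV39H1 hairpins was lost (0 members called) with repeat-table scaling (0.19) and with the compared libraries only (0.21), at nearly the size of 0.22. With 1 library left out it gave 0 to 1 members, lost without SUV39H1 hairpin 2 replicate 1 or 2 or hairpin 4 replicate 3, and the cause was not tested. LTR13_ stayed between −1.77 and −1.44 for the G9a hairpins together under every alternative run. Of 1448 values under alternatives, 1318 were counted as kept, 29 lost a call, 4 gained 1, 88 moved and 9 reversed. For a tested member, kept means the same direction and call. For a value given as a description, kept means a shift within the spread between libraries of a group, whatever its call. Calls lost in the described comparisons are therefore not among the 29.

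With a replicate block, 7 members were called for the SUV39H1 hairpins together, as without it, and the block changed no call of a member. Deviations of same-numbered libraries had r over 0.1 in 22 of 84 pairs (median 0.05), so the numbers were not taken to pair libraries over the design. All 3 pairs of scrambled with SUV39H1 hairpin 4 exceeded it (0.163, 0.319 and 0.229), and there the block gave 7 members called, as without it.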
